A study of Mus musculus with 4 samples.

Results

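The 7 genes that encode the subunits of the N-methyl-D-aspartate (NMDA) receptor, Grin1, Grin2a, Grin2b, Grin2c, Grin2d, Grin3a and Grin3b, were taken from the 21887 protein-coding nuclear genes of the mouse mm10 RefSeq annotation. All peaks of H3K27me3 that lay in them or within 2000 bp of them were described. The genes are a family named in full, but they were chosen with the peak numbers of Grin2b already known, so their peak numbers are a description and were not tested. The study used the mouse glioblastoma line GL261 and ChIP-seq, in which DNA bound by an antibody is sequenced, with 1 H3K27me3 library of irradiated cells and 1 of control cells. An input library (DNA without immunoprecipitation) existed for each condition and was not analysed here by itself. IR in the labels was taken to mean irradiated, which rests on the title given to the series. No source used here gives the dose or the time after radiation. With 1 library per condition there was no replicate error to compare with, so no p-value between conditions was computed. Intervals are exact (Clopper-Pearson) 95% intervals and cover counting error only.

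NMDA receptors are glutamate-gated cation channels of excitatory synapses that admit calcium. Each holds the obligatory GluN1 subunit, encoded by Grin1, together with GluN2 subunits (Grin2a to Grin2d), which bind glutamate and set the kinetics, or GluN3 subunits (Grin3a, Grin3b), which bind glycine and lower the calcium flow. The mark H3K27me3 (histone H3 with 3 methyl groups on lysine 27) is placed by Polycomb repressive complex 2 and is best known from silent genes with CpG-rich promoters, often as broad domains over the start of the gene.

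The irradiated list held 16091 peaks and the control list 9866, of which 2453 and 675 reached a q of 0.05 or less. The fold, p and q of a peak are the authors' own values, and describe the peak against a local background. Whether that background came from the H3K27me3 or the input library was not determined here. The reads under each summit were recovered from its fold and p. The median over all peaks was 11 reads and a width of 364 bp in the irradiated list, and 10 reads and 357 bp in the control list. A listed peak is thus a narrow site resting on few reads, and broad domains were not measured as such. As a check of the mark, the 39 Hox genes, textbook Polycomb targets, were counted, of which 3 had a peak in the irradiated list and 1 in the control list. These are 7.69% and 2.56% of the Hox genes, beside 8.20% and 6.05% of all protein-coding genes. Hox genes are short, with a median length of 3.74 kb, and of all genes under 50 kb 5.36% and 3.08% had a peak. Of the Hox genes with an irradiated peak, Hoxc5 counts by a peak that it shares with Hoxc4.

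Peaks of the NMDA receptor genes were nearly all in the longest members. The 7 genes held 45 irradiated and 54 control peaks, and Grin2b alone held 35 and 41 of them. Grin2a held 8 irradiated and 11 control peaks, Grin3a 1 and 2, and Grin2d 1 and 0. Grin1, Grin2c and Grin3b had no peak in either list. Thus 4 of 7 members had an irradiated peak and 3 of 7 a control peak, beside 8.20% and 6.05% of all protein-coding genes. A peak in both lists was held by 3 of 7 members and by 3.67% of all genes. A peak with a q of 0.05 or less was held by 3 members in the irradiated list (Grin2a, Grin2b, Grin3a) and by 1 in the control list (Grin2b), beside 2.08% and 0.516% of all genes. At a −log10 p of 5 or more, 3 members had an irradiated peak and 2 a control peak, beside 3.28% and 0.859%. Gene length sets the room for peaks, and the members fall into 3 genes of at least 150 kb (Grin2a, Grin2b, Grin3a) and 4 under 50 kb. Among all genes of at least 150 kb, 25.7% had an irradiated and 28.3% a control peak, and 18.6% had both, as all 3 long members did. With a q of 0.05 or less, 9.38% of these long genes had an irradiated and 2.40% a control peak, and at a −log10 p of 5 or more 14.8% and 4.04%. Since Grin2b was known to be rich in peaks when the family was chosen, nothing is read from these shares. Among genes under 50 kb the shares were 5.36% and 3.08%, and of the 4 short members only Grin2d had a peak, in the irradiated list. No peak was in the 2000 bp outside any member, so every peak lay in a gene body.

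**Figure D1:**
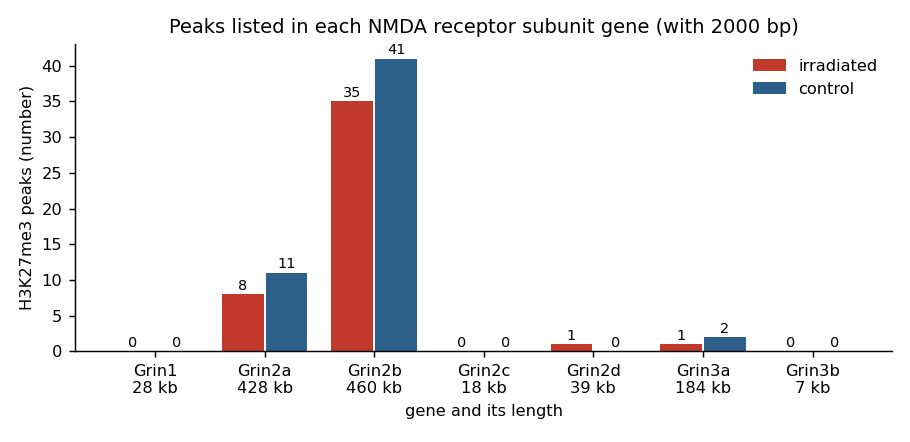
Number of H3K27me3 peaks (vertical axis) in each NMDA receptor subunit gene with 2000 bp on either side, in the irradiated library (red, left bar) and the control library (blue, right bar), with the length of the gene under its name. Grin2b holds 35 and 41 peaks and Grin2a 8 and 11, while Grin1, Grin2c and Grin3b hold none.

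Grin1, the gene of the subunit that every NMDA receptor needs, lies on chromosome 2 (25291177 to 25319187) and is 28.0 kb long. The nearest irradiated peak was 155 kb away from the gene and the nearest control peak 187 kb. RefSeq (GRCm38.p6, the assembly of mm10) gave a start region, from 250 bases before to 50 after the transcription start, for 4 members, Grin1, Grin2c, Grin2d and Grin3b. None of the 4 start regions held a peak. All peaks together covered 0.255% of the genome in the irradiated list and 0.150% in the control list, so empty regions of 300 bases say little. The share of all start regions with a peak was not computed. The regions differ in the number of CG steps, the sequence feature of the promoters where the mark is best known. Of the 300 bases, Grin1 holds 33 CG steps, Grin2c 22, Grin2d 12 and Grin3b 3. Among the 32851 start regions of this length in the RefSeq table, 8.56% have at least as many CG steps as Grin1, 23.1% as many as Grin2c, 39.6% as many as Grin2d and 76.7% as many as Grin3b. CG reads the same on both strands and does not overlap itself. The regions of Grin1, Grin2d and Grin3b are shown, since they span the range from rich to poor and Grin2d is the one of the 4 genes with a peak elsewhere. They lie at chr2:25319138-25319437 (minus strand), chr7:45866632-45866931 (minus strand) and chr10:79970474-79970773 (plus strand). That of Grin2d lies inside the gene span, which reaches up to 45871194. Capitals mark CG steps, and letters run 5′ to 3′ along the strand of the gene.
Grin1: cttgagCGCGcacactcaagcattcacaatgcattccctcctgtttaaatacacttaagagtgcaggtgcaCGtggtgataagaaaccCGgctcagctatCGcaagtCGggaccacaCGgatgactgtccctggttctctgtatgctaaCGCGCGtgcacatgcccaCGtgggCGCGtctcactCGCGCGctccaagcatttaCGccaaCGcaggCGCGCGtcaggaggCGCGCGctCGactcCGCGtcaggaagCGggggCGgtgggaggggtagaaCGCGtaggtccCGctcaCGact
Grin2d: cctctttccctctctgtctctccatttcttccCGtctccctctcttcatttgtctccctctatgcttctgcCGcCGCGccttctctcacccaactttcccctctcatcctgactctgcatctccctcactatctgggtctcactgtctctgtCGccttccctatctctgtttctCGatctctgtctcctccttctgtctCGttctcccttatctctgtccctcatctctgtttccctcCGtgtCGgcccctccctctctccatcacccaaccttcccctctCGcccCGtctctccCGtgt
Grin3b: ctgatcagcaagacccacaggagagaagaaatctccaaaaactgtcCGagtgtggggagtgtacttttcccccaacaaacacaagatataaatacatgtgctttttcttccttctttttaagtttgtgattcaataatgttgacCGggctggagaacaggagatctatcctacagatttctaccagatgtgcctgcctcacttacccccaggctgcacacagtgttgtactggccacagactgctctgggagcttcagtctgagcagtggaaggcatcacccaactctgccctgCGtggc
From the transcription start of Grin1, the nearest peak was 183 kb away in the irradiated list and 215 kb in the control list, and from that of Grin3b 315 kb and 654 kb. Neither the CG-rich start of Grin1 nor the CG-poor start of Grin3b held a listed peak. With 0.598 irradiated and 0.367 control peaks per 100 kb of the genome, nothing is read from this about CG content. For Grin2a, Grin2b and Grin3a positions are counted from the end of the gene with the lower coordinate, without regard to strand.

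Grin2b encodes GluN2B, the GluN2 subunit that prevails in the embryonic and newborn forebrain. It lies on chromosome 6 (135713221 to 136173615) and spans 460 kb. Its 35 irradiated peaks covered 15550 bp, 3.35% of the gene with its margins, and its 41 control peaks covered 18527 bp, 3.99%. By number of peaks Grin2b stood 10th of 21887 genes in the irradiated list and 2nd in the control list. By peaks per 100 kb it stood 25th of the 1461 genes of at least 150 kb in the irradiated list, with 7.54, and 6th in the control list, with 8.83. These densities, over peaks of any strength, were 12.6 times that of the whole genome in the irradiated list and 24.1 times in the control list. Against chromosome 6, which as a whole is rich in peaks, they were 5.68 and 10.5 times as high. With peaks of a −log10 p of at least 5, Grin2b held 3.01 irradiated and 0.215 control peaks per 100 kb. The genome then held 0.164 and 0.0407, and chromosome 6 0.384 and 0.0790. At that limit the larger excess over both was in the irradiated list.

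The peaks of Grin2b were single narrow sites spread through the gene body. Median width was 400 bp in the irradiated list (270 to 1089) and 374 bp in the control list (284 to 1295). Only 3 irradiated and 4 control peaks were 800 bp or wider. The first irradiated summit stood 4.73 kb inside the lower end of the gene and the last 12.3 kb inside the upper end; for control summits these distances were 26.96 and 35.0 kb. Neither end of the gene thus had a summit within 2000 bp. The part of the gene below its middle held 23 of 35 irradiated summits (65.7%, 47.8 to 80.9) and 29 of 41 control summits (70.7%, 54.5 to 83.9). When the gene was cut into 10 equal parts, part 2 held the most control summits, 13, and parts 2 and 4 the most irradiated ones, 7 each. The gap between neighbouring peaks had a median of 6.40 kb in the irradiated list and 3.49 kb in the control list. The longest peak-free stretch ran from 357 to 425 kb of the gene in the irradiated list and from 272 to 317 kb in the control list.

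The group with the most peaks belonged to the control list. When peaks with gaps of at most 5000 bp were joined, both lists gave 18 groups. The largest control group, at chr6:135782922-135812394, held 11 control peaks in 29.5 kb, and 4 irradiated peaks lay in the same stretch. The largest irradiated group held 5 peaks in 10.6 kb, from 45.0 to 55.6 kb of the gene. These groups were picked by their numbers, so their difference is a description.

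**Figure D2:**
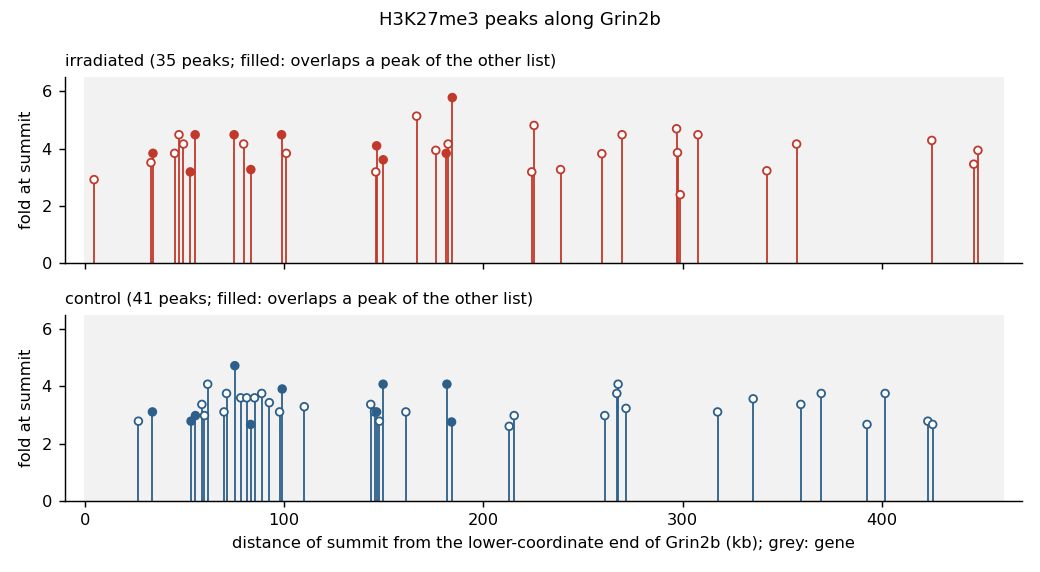
Fold enrichment at the summit (vertical axis) of each peak in Grin2b against the distance of the summit from the lower-coordinate end of the gene in kb (horizontal axis), for the irradiated library (top) and the control library (bottom). Filled points mark the peaks that overlap a peak of the other list, 10 in each; the grey band is the gene.

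The strongest irradiated peak of Grin2b lay 184 kb into the gene, at chr6:135897388-135897869, with 16 reads and a summit fold of 5.79 at a q of 0.00171. The next irradiated peaks, at 167 and 225 kb, had folds of 5.14 and 4.81, both with a q of 0.0119. The one after these, at 297 kb, had a summit fold of 4.70 at a q of 0.0241, and no further irradiated peak of the gene reached a q of 0.05, so there were 4. The next, at 47.3 kb, had a summit fold of 4.49 at a q of 0.0536. In the control list only 1 peak reached a q of 0.05. It lay 75.3 kb into the gene, at chr6:135788302-135788593, with 13 reads and a summit fold of 4.72 at a q of 0.0157. The next control peaks, at 61.7, 150, 182 and 268 kb, had 11 reads and a summit fold of 4.08 at a q of 0.385 each. Thus the strongest sites of the lists were not the same, although both overlapped a weaker peak of the other list.

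Irradiated peaks were fewer in Grin2b but stronger. They had a median of 11 reads (8 to 16) and a median fold of 3.94 (2.39 to 5.79), and control peaks a median of 9 reads (7 to 13) and a median fold of 3.23 (2.60 to 4.72). Over the whole lists the median folds were 3.67 and 3.43. Of the irradiated peaks, 14 of 35 had a −log10 p of at least 5 and 2 had one under 3. Of the control peaks, 1 of 41 had a −log10 p of at least 5 and 20 had one under 3. In the whole lists a −log10 p under 3 was held by 17.0% of irradiated and 34.8% of control peaks, against 5.71% and 48.8% in Grin2b. The lists do not reach down equally far: at the lowest background, 8 reads gave a −log10 p of 3.09 in the irradiated library, and 7 reads gave 2.59 in the control library. One read fewer gave 2.23 and 1.84, and the lists ended at a p of 0.00499 and 0.00495. At the lowest background, peaks with a −log10 p under 3 could therefore enter the control list and not the irradiated list. Of the Grin2b peaks, 21 of 35 irradiated and 22 of 41 control peaks were at the lowest background.

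The excess of control peaks in Grin2b was in this weakest class. Over all peaks the irradiated list supplied 46.1% of the peaks of Grin2b (34.5 to 57.9), beside 61.3% on chromosome 6 (59.6 to 63.0) and 62.0% in the genome (61.4 to 62.6). With peaks of a −log10 p of at least 3, 33 irradiated and 21 control peaks were left in Grin2b, a share of 61.1% (46.9 to 74.1) beside 67.5% in the genome. At a −log10 p of at least 4 there were 24 and 14, a share of 63.2% (46.0 to 78.2) beside 69.8%. At a −log10 p of at least 5 there were 14 and 1, a share of 93.3% (68.1 to 99.8) beside 80.1%. The order of the libraries in Grin2b thus turned with the strength asked of a peak. Equal limits of −log10 p were not equal limits of reads. At the lowest background, 11 reads gave a −log10 p of 5.04 in the irradiated library and 4.31 in the control library. A limit of 5 thus asked for 11 reads in the irradiated and 12 in the control library. Of the Grin2b peaks, 13 irradiated and 7 control peaks had 11 or 12 reads, and 9 and 1 had 13 or more. Of the 82 genes with at least 20 peaks in both lists together, 10 (12.2%) had more control than irradiated peaks, and Grin2b was 1 of these; at a −log10 p of at least 5 it was 0 of the 82 (0.00%). The same order was found in 2 of 17 such genes on chromosome 6 (11.8%) and in 28.7% of the 2316 genes with any peak. How far the unequal reach of the lists makes up this order was not tested.

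**Figure D3:**
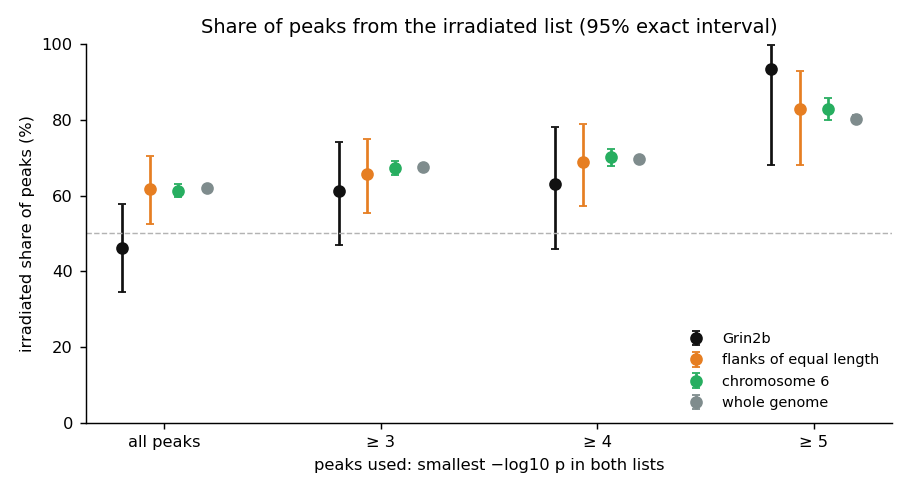
Share of the peaks of both lists that came from the irradiated list (vertical axis, percent, with 95% exact intervals) when peaks of increasing −log10 p were used (horizontal axis), for Grin2b, its flanks of equal length, chromosome 6 and the genome; the dashed line marks equal numbers. Grin2b stands at 46.1% with all peaks, below the others, and at 61.1%, 63.2% and 93.3% at the 3 limits.

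Of the peaks in Grin2b, 10 irradiated peaks (28.6%, 14.6 to 46.3) and 10 control peaks (24.4%, 12.4 to 40.3) overlapped a peak of the other list by at least 1 bp. On chromosome 6 the shares were 15.2% (13.6 to 16.8) and 23.8% (21.5 to 26.3). The intervals of Grin2b hold both of these values. They treat neighbouring peaks of 1 library as independent, and a difference from the chromosome was not tested. In the genome the shares were 13.3% and 21.4%, in lists that are less dense there than in Grin2b, and the part of density in the sharing was not tested. With the irradiated list shortened to its 9866 peaks of lowest p, the irradiated shares were 32% in Grin2b (14.9 to 53.5) and 16.6% in the genome. When the overlap had to cover 50% of both peaks, 8.57% of irradiated Grin2b peaks were shared (1.80 to 23.1), beside 7.38% in the genome. All 10 pairs lay between 33.9 and 184 kb of the gene, in its lower part, and none farther up. There the irradiated list had the peaks at 225 and 297 kb, and the control list had peaks as well, such as those at 268 and 425 kb. The overlaps ran from 31 to 564 bp, and in 4 of the 10 pairs the summits were within 200 bp. The irradiated fold was the higher one in 7 pairs, and the ratio of the folds had a median of 1.19 (0.886 to 2.10). Folds of the 2 lists were scaled separately. The highest ratio belonged to the strongest irradiated peak, with 16 reads against 7 reads and a fold of 2.76 in the control peak. In the pair with the strongest control peak, at 75 kb, the irradiated fold was 4.49 with 12 reads, against 4.72 with 13 reads in control cells. Peaks of one list stood a median of 2.06 kb (irradiated) and 2.00 kb (control) from the nearest summit of the other list, against 5.91 and 3.31 kb over chromosome 6.

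The gene is part of a longer stretch with peaks. Flanks as long as the gene window, on both sides together, held 8.18 irradiated and 5.06 control peaks per 100 kb, so the density in Grin2b was 0.921 times that of its flanks in the irradiated list and 1.74 times in the control list. These ratios depended on the flanks and on the strength of the peaks. The irradiated ratio was 1.16 with flanks of 1 Mb and 3.09 with flanks of 5 Mb, and the control ratio was 0.286 when peaks with a −log10 p of 5 or more were used. The flanks were unequal. The lower flank held 57 irradiated and 37 control peaks, the upper flank 19 and 10. The 326 kb between Grin2b and its lower neighbour Emp1, which encodes an epithelial membrane protein, held 55 irradiated and 36 control peaks, or 16.9 and 11.04 per 100 kb, more than the gene itself. Of the irradiated peaks there, 26 had a −log10 p of at least 5, and of the control peaks 4. On the other side, the 150 kb up to Eif4a3l1 held 7 peaks of each list. Of all 21887 protein-coding genes, 2316 had a peak in either list. Of the 29 named protein-coding genes within 1 Mb of the gene window, 24 had no peak. The 5 others were Gprc5d, an orphan receptor gene (5 irradiated and 1 control peak), Plbd1, a phospholipase gene (6 and 3), Gucy2c, the receptor gene for guanylin of the gut (17 and 5), Pde6h, a phosphodiesterase subunit gene of cones (1 and 0), and Rerg, a Ras-like GTPase gene (16 and 9). Counting peaks of any strength, all 5 had more irradiated than control peaks, unlike Grin2b. This contrast was absent under stricter limits, since Grin2b then had more irradiated peaks too. Keeping only peaks whose −log10 p reached 5 left 14 irradiated peaks and 1 control peak in Grin2b. It left 4 and 1 in both Plbd1 and Gucy2c, 6 and 2 in Rerg, and none in Gprc5d and Pde6h. Cdkn1b, the gene of the cell cycle inhibitor p27, and Dusp16, a phosphatase gene of the stress kinases, were among the 24 neighbours without any peak.

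**Figure D4:**
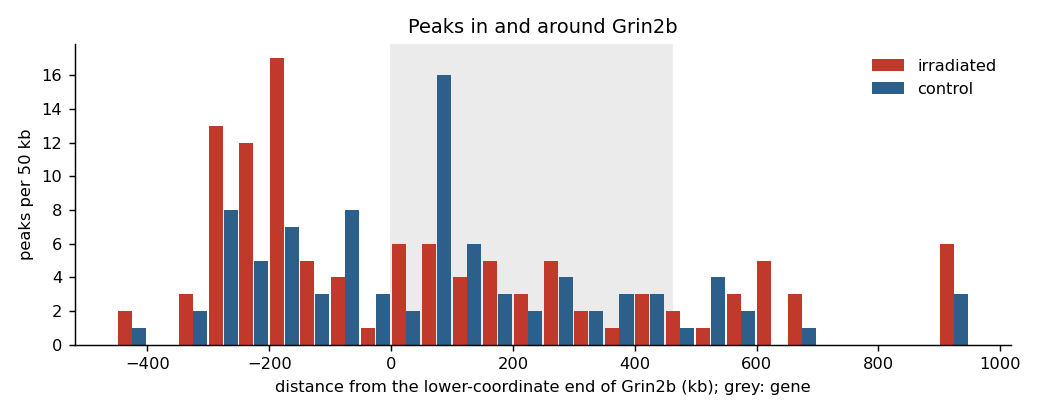
Number of peak summits per 50 kb (vertical axis) in and around Grin2b, against the distance from the lower-coordinate end of the gene in kb (horizontal axis), for the irradiated (red) and control (blue) libraries; the grey band is the gene. The fullest single bin of irradiated peaks lies below the gene, with 17 from −200 to −150 kb, and that of control peaks within it, with 16 from 50 to 100 kb. In both lists the stretch between Emp1 and the gene held more peaks per 100 kb than the gene.

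Few peaks of Grin2b stood over a raised background. A background of at least 1.5 times the lowest of the list was found at 4 of 35 irradiated and 1 of 41 control peaks, and over all peaks at 26.4% and 14.9%. The highest background at a Grin2b peak was 2.43 scaled reads in the irradiated list and 1.42 in the control list, against lowest values of 0.704 and 0.918.

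Among the 81 other genes with at least 20 peaks in both lists together, the gene nearest to Grin2b in the log2 of its irradiated and control peaks per 100 kb was Fbxl7, a gene of an F-box protein on chromosome 15. It held 30 irradiated and 31 control peaks, or 8.35 and 8.63 per 100 kb, a distance of 0.152. Dab2, an endocytic adaptor gene on chromosome 15, followed with 8 and 13 peaks and a distance of 0.450. Cecr2, a chromatin remodelling gene on chromosome 6, had 12 and 11 peaks and a distance of 0.582. Dnah5, an axonemal dynein gene on chromosome 15 (34 and 21), and Lnx1, a ubiquitin ligase gene on chromosome 5 (15 and 10), came next, with distances of 0.654 and 0.797. This likeness rests on 2 libraries.

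Grin2a encodes GluN2A, the GluN2 subunit that gains ground over GluN2B as the forebrain matures. It lies on chromosome 16 (9567901 to 9996083) and, at 428 kb, is nearly as long as Grin2b. It held 1.85 irradiated and 2.55 control peaks per 100 kb, against 7.54 and 8.83 in Grin2b. The irradiated list supplied 42.1% of its 19 peaks (20.3 to 66.5), beside 49.2% on chromosome 16 (45.4 to 53.0). Here too the order turned with strength: at a −log10 p of at least 3 Grin2a held 7 irradiated and 6 control peaks, at 4 it held 5 and 3, and at 5 it held 4 and 1. Chromosome 16 as a whole turned in the same way, from 341 irradiated and 352 control peaks of any strength. At the limits of 3, 4 and 5 it held 283 and 228, 190 and 122, and 79 and 21. This turn is thus not particular to Grin2a. The flanks of equal length around Grin2a held 32 and 18 peaks, so the density in Grin2a was 0.5 times that of the flanks in the irradiated list and 1.22 times in the control list. The 8 irradiated peaks had folds between 2.71 and 5.14 and 8 to 15 reads. The strongest, at chr16:9615835-9616293, 48.1 kb into the gene, had 15 reads and a summit fold of 5.14 at a q of 0.00357, the only one of the gene under 0.05. Irradiated peaks at 88.2, 128, 337 and 414 kb had a q of 0.0536 each, with folds of 4.16, 4.22, 4.16 and 4.49. Those at 44.1, 55.3 and 103 kb had folds of 3.19, 3.19 and 2.71.

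The 11 control peaks of Grin2a had folds between 2.61 and 4.399 and 8 to 12 reads. The strongest, 118 kb into the gene at chr16:9685406-9685781, had 12 reads and a summit fold of 4.399 at a q of 0.0823. The peaks at 42.3 and 84.6 kb had folds of 3.75, and those at 34.9, 43.3 and 246 kb folds of 3.43. The others, at 88.2, 92.1, 107, 113 and 114 kb, had a q of 1, and those at 113 and 114 kb stood over a background of 2.00 scaled reads. Of these 11, 10 lay between 34.9 and 118 kb of the gene, as did 5 of the 8 irradiated peaks. The irradiated list had peaks farther up, at 337 and 414 kb, where the control list had none. Only 1 pair overlapped, at 88.2 kb, by 218 bp and with summits 34 bp apart; its irradiated fold was 4.16 with 11 reads and its control fold 3.11 with 8 reads. As in Grin2b, no summit lay within 2000 bp of a gene end.

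**Figure D5:**
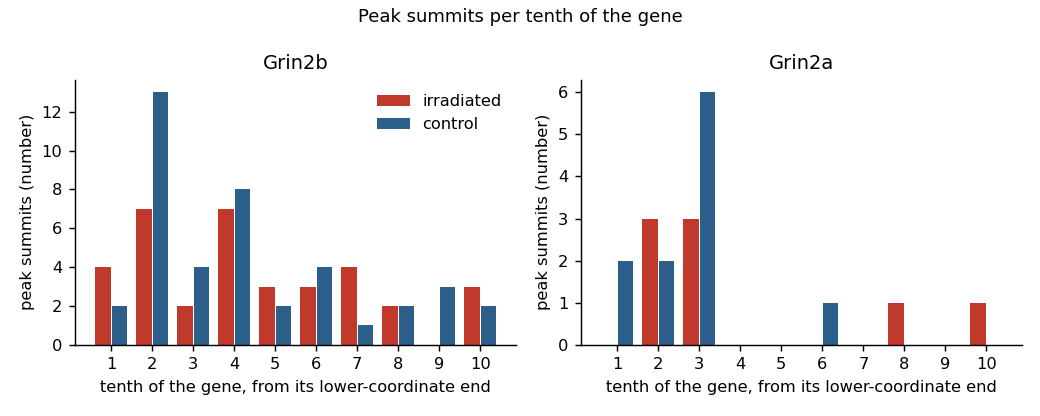
Number of peak summits (vertical axis) in each of 10 equal parts of Grin2b (left) and Grin2a (right), counted from the lower-coordinate end of the gene (horizontal axis), for the irradiated (red) and control (blue) libraries. In both genes most summits of both lists lie below the middle of the gene, 23 irradiated and 29 control summits in Grin2b and 6 and 10 in Grin2a.

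Grin2c and Grin2d encode the remaining GluN2 subunits, known from the cerebellum and from interneurons. Grin2c, on chromosome 11 (115249169 to 115267297), had no peak in either list, and the nearest peak was 112 kb away in both. Grin2d, on chromosome 7 (45831883 to 45871194), had 1 irradiated peak, at chr7:45840514-45840915, 25.8 kb from the transcription start used here. That start lies inside the gene span, and the summit was 30.4 kb from the upper end of the gene. The peak had 12 reads over a raised background of 1.62 scaled reads and a summit fold of 2.92 at a q of 0.537. The nearest control peak to the gene was 95.6 kb away.

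Of the GluN3 genes, Grin3a, on chromosome 4 (49661611 to 49846023), held 1 irradiated and 2 control peaks in 184 kb. The irradiated peak, at chr4:49693283-49693552, had 14 reads and a summit fold of 5.14 at a q of 0.0119. A control peak stood next to it without overlap, at chr4:49694072-49694355, with 9 reads and a summit fold of 3.43 at a q of 0.831. The other control peak, 80.0 kb into the gene, had 7 reads and a fold of 2.67. Grin3b, on chromosome 10 (79970397 to 79977190) and the shortest member at 6.79 kb, had no peak in either list, the nearest being 315 kb away in the irradiated and 653 kb in the control list.

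Genes that work with the NMDA receptor were described from 3 lists written from textbook knowledge. Among the 11 AMPA, kainate and delta receptor subunit genes, the other ionotropic glutamate receptor genes, 5 had a peak in the irradiated list and the same 5 in the control list. The median length of these genes is 378 kb, and of all genes of at least 150 kb 25.7% and 28.3% had such a peak. Gria1, an AMPA receptor gene on chromosome 11, held 11 irradiated and 10 control peaks, and Grik4, a kainate receptor gene on chromosome 9, held 12 and 1. Grid1, a delta receptor gene, held 4 irradiated and 2 control peaks, and the kainate receptor gene Grik1 1 of each. The strongest was an irradiated peak of Grid1 with a summit fold of 5.07 at a q of 0.00437.

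Of 27 genes of scaffolds and signalling partners of the receptor, 9 (33.3%) had an irradiated and 7 (25.9%) a control peak, with 4 in both. Their median length is 101 kb, and the shares were 8.20% and 6.05% among all protein-coding genes and 25.7% and 28.3% among those of at least 150 kb. Dlgap2, a postsynaptic scaffold gene on chromosome 8, held 14 irradiated and 5 control peaks, the strongest with an irradiated fold of 4.81 and a q of 0.0119. Kalrn, a signalling gene of dendritic spines on chromosome 16, held 15 and 5. The scaffold genes Shank2 and Shank3 held 5 and 4 irradiated and 1 and 2 control peaks, and the strongest irradiated peak of Shank3 had a summit fold of 5.21 at a q of 0.00220. Of 13 genes of the supply and uptake of glutamate and co-agonists, 2 (15.4%) had a peak in each list, beside 8.20% in the irradiated and 6.05% in the control list among all protein-coding genes. Slc1a2, the main glial glutamate transporter gene, on chromosome 2, held 3 peaks of each list, the strongest irradiated one with a summit fold of 5.46 at a q of 0.00171 and the strongest control one with a summit fold of 3.43 at a q of 0.831. Dao, which encodes the oxidase that degrades the co-agonist D-serine, held 4 irradiated peaks and 0 control peaks. Of the Hox genes, Hoxc4 held 3 irradiated peaks and 1 control peak, of which the control peak had 18 reads and a summit fold of 4.59 at a q of 0.00579. Hoxb3 and Hoxc5, named after their values were seen, held 1 irradiated peak each, and that of Hoxc5 was also counted for Hoxc4.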

How the data were processed

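GL261 cells were cross-linked with 1% formaldehyde, chromatin was sonicated to 300 to 500 bp, and H3K27me3 and input libraries were read as 150-bp pairs, per the labels' protocols. BWA, deepTools and mm10 are named without versions in the submitters' processing notes; no source used here names the peak caller. The authors deposited 1 peak list per H3K27me3 library, not pooled. The deposited start, end and summit are positions, another kind of value. The deposited score is a rounded form of the p. The deposited ratio is the fold at the summit over local background, and the −log10 p-value and −log10 q-value are also deposited per peak.

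Lines giving a further summit of an interval (679 irradiated, 215 control) were merged, keeping the strongest. Reads and background were recovered with a Poisson model, fold being scaled pileup plus 1 over background plus 1. For 100% of lines of both lists a whole number of reads was found within 0.002 in −log10 p, with more than 1 solution in 0.698% of irradiated and 0.0198% of control lines. One read was worth 0.554 and 0.620 scaled reads, and the mean was 1.27 and 1.48 reads per position. The recovery was tested on simulated data. Library totals are unknown. RefSeq annotation of GRCm38.p6 gave the gene spans. Members, lists and named genes were chosen with earlier results of these data known. Named were all members, listed partners with a −log10 p of at least 5 (else up to 4 per list), neighbours within 1 Mb and the 5 genes nearest in density; the values of 1 listed partner are not reported here. Python 3.11.15, pandas 2.3.3 and scipy 1.17.1 were used.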

Additional observations from a re-analysis of the deposited data

How the results depend on the processing

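Depth limits every count, since a peak rests on as few as 8 reads in the irradiated and 7 in the control library. No paired analysis was possible because there was 1 library per condition. Of the alternatives tried, 47 values moved and 169 did not. The latter include the counts of Grin1, Grin2c and Grin3b, which were 0 and could not fall under stricter limits. A value counted as not moved could also differ, as the irradiated peaks of Grin2b did, with 25 instead of 35 at equal numbers of peaks. The tally is therefore no measure of how firm the results are. Margins of 0, 500 or 5000 bp left the numbers of Grin2b as they were, and 5000 bp gave Grin2a 9 irradiated and 12 control peaks. With a q of at most 0.05, Grin2b kept 4 irradiated peaks and 1 control peak (irradiated share 80.0%) and Grin2a 1 and 0. Peaks with a −log10 p of 5 or more numbered, in Grin2b, 14 and 1 (93.3%) and in Grin2a 4 and 1. Limits of 3 and 4 were added after the data were seen: the share in Grin2b was 61.1% and 63.2%, with 21 and 14 control peaks, and Grin2a had 6 and 3 control peaks and, at the limit of 4, 5 irradiated ones. With the irradiated list cut to its 9866 lowest p, which removes irradiated peaks alone and so could not raise their share in Grin2b, Grin2a held 5 irradiated peaks, Grin2b held 25 and the share in Grin2b was 37.9%. Peaks joined within 5000 bp gave 18 and 18 groups in Grin2b (50%) and 6 control groups in Grin2a. Overlap asked in 50% of both peaks left 8.57% of irradiated and 7.32% of control peaks of Grin2b shared, summits within 200 bp 11.4% and 9.76%, and of control peaks with a q of at most 0.05, 1 peak, 100% were shared. Against flanks of 5 Mb the density in Grin2b was 3.09 (irradiated) and 4.20 (control) times as high; with peaks of a −log10 p of 5 or more the control ratio to equal flanks was 0.286. With a q of at most 0.05, members with an irradiated and a control peak numbered 1 and 0 for AMPA, kainate and delta receptor genes, 2 and 0 for scaffold and signalling genes, 2 and 0 for supply and uptake genes, and 0 and 1 for Hox genes. Of all protein-coding genes, 2.08% had such an irradiated and 0.516% such a control peak. Of those of at least 150 kb, 9.38% and 2.40% had one. With equal numbers of peaks 1 Hox gene had an irradiated peak, and with 5000 bp 2 had a control peak. With gene bodies alone 1 supply and uptake gene had a control peak. The cause of these moves was not tested, beyond the smaller numbers of peaks that stricter limits leave.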
